A study of Caenorhabditis elegans with 9 samples.

Results

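The 3 libraries described here come from worms that received no nanomaterial, the mock-treated controls of a study of 9 libraries on graphene oxide in Caenorhabditis elegans. They are all the samples whose treatment is given as none in the labels. The animals were wild type of strain N2, the standard laboratory strain, a self-fertilising hermaphrodite with rare males. Each sample held 500 whole animals kept for 12 h in liquid culture, and the same culture conditions were used for the whole series. The age and developmental stage of the animals are not given in the labels. Nothing in the labels says that the 3 replicates were grown as separate cultures, so the spread between them may be technical. RNA was released with beads in TRIzol, cleaned on RNeasy columns and made into stranded TruSeq libraries that were read from both ends on an Illumina HiSeq. With a lone group there is nothing to test, so levels, ranks and spread are given without p-values. The unit is FPKM, which divides the fragments of a gene by its transcript length and by the mapped fragments of the library, as the authors deposited it. FPKM is corrected for transcript length, so levels of different genes can be set side by side. Limits given below hold for very short genes, for genes alike in sequence and for listed zeros. Where 3 values are given in a row they are controls 1, 2 and 3 in that order.

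An adult C. elegans hermaphrodite makes its sperm during the last larval stage and then turns the germline to oocytes for the rest of its life. The intestine makes yolk proteins, which are secreted into the body cavity and taken up by growing oocytes, and fertilised eggs begin to develop inside the mother. The cuticle, a collagen coat secreted by the skin, is replaced at each larval moult, and separate sets of collagen genes serve different stages. The genes that are on and off in whole animals therefore carry information on stage. In whole-animal RNA, fewer cells of a type and less RNA per cell cannot be told apart.

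The deposited table lists 46284 gene IDs, of which 46109 were found in the WBcel235 annotation used for names and positions. At least 1 FPKM, taken as detected throughout, was reached by 12609, 12659 and 12329 genes. All 3 libraries shared 11848 of these, including 11411 protein-coding genes, or 57.9% of the 19725 that were listed. At the other end, 2229 protein-coding genes (11.3%) were listed at 0 in all 3 libraries, and 7194 (36.5%) stayed below 1 FPKM in all 3. The median protein-coding gene had a mean of 3.35 FPKM, and 160 had at least 1000 FPKM. Expression was concentrated in few genes. The 10 most abundant genes held 5.48% ± 0.097 (SD, n = 3) of the summed FPKM, the top 100 held 28.6% ± 0.245 and the top 1000 held 65.0% ± 0.309.

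The most abundant transcript was eef-1A.1, which encodes translation elongation factor 1 alpha, the protein that brings charged tRNAs to the ribosome. It stood at 7695, 7895 and 8019 FPKM (chromosome III, 6970026 to 6971712). Ribosomal proteins filled most of the places behind it. Of the 25 most abundant protein-coding genes, 15 were on the list of cytosolic ribosomal proteins, led by rpl-41.2 at 7527, 7294 and 7615 FPKM and rpl-29 at 5240.2, 5253 and 5278 FPKM. Among the 100 most abundant, the list supplied 66. The other ribosomal genes in the top 25 by rank were rpl-39, rps-25, rpl-38, rps-23, rps-24, rps-28, rpl-36.A, rps-8, rpl-36, rpl-24.1, rla-1, rps-11 and rpl-27. Y37E3.8, also in the top 25, is named as a ribosomal protein gene in RefSeq, and no role was given here to Y82E9BR.3.

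**Figure D1:**
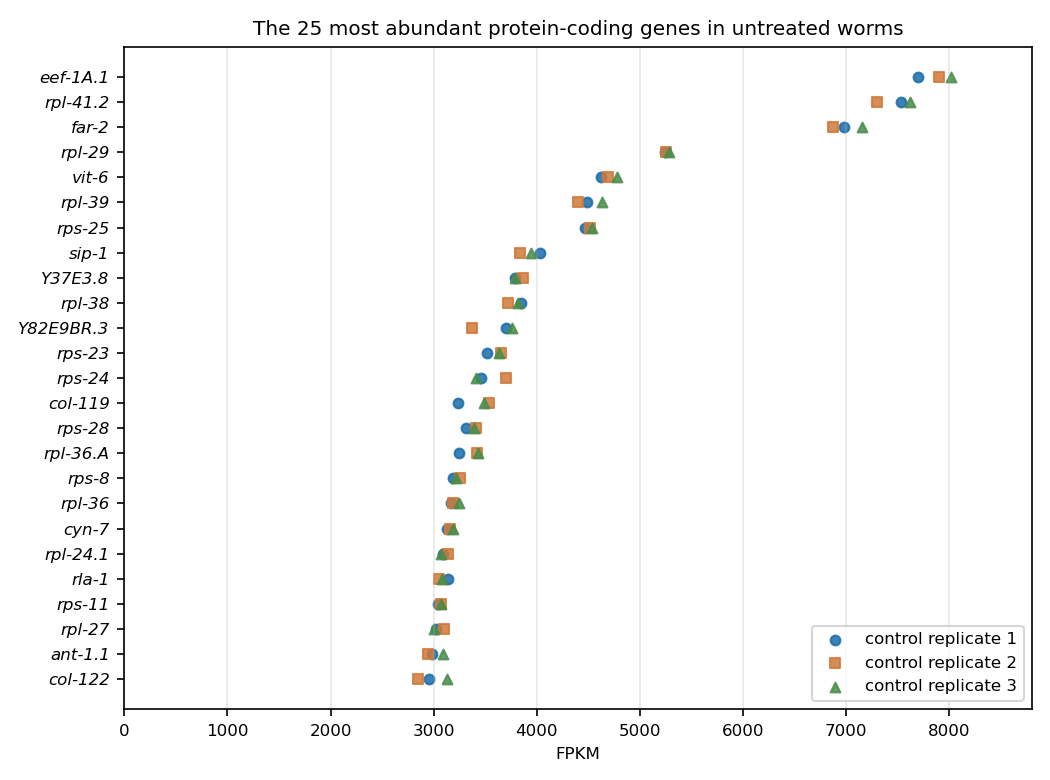
FPKM of the 25 most abundant protein-coding genes, with 1 point for each of the 3 control libraries and genes ordered by their mean. The points of a gene lie close together, with coefficients of variation (CV, the SD as a percent of the mean) between 0.370% and 5.81%, and eef-1A.1 is the highest in all 3 libraries.

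The non-ribosomal members of the top 25 name what else these animals made in bulk. far-2, a secreted protein that binds fatty acids and retinol, had 6978, 6871 and 7147 FPKM (chromosome III, 9081828 to 9082511). vit-6, which encodes a yolk protein, had 4623, 4686 and 4780.5 FPKM (chromosome IV, 8261157 to 8266459). The small heat shock protein gene sip-1, known from oocytes and embryos, had 4034, 3834 and 3948 FPKM (chromosome III, 10506106 to 10506801). A pair of cuticle collagens followed, col-119 at 3238, 3536 and 3487 FPKM (chromosome IV, 8978926 to 8979795) and col-122 at 2953, 2846 and 3126 FPKM. cyn-7, a cyclophilin that helps proteins fold, reached 3125, 3155 and 3186 FPKM, and ant-1.1, which exchanges ADP and ATP across the inner mitochondrial membrane, reached 2983, 2941 and 3092 FPKM. No gene of the 25 differed between libraries by more than a CV of 5.81%.

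By family, translation took the largest share. The 81 genes on the list of cytosolic ribosomal proteins, which leaves out Y37E3.8, held 20.1% ± 0.294 of the summed FPKM. Of these genes, 75 had a mean of at least 1000 FPKM. The genes with a lower mean were rpl-11.2, rpl-37, rpl-41.1, rpl-25.1, rpl-24.2 and rpl-42. Of these rpl-42 was lowest, listed at 0.0732, 0 and 0 FPKM. rpl-7, whose mean passed 1000 FPKM, was listed at 0 in control 2, against 3090.2 FPKM in control 1 and 3070.3 in control 3. Without rpl-7 the list held 19.7%, 19.9% and 20.1% of the summed FPKM. The 6 translation elongation factor genes held 1.45%, and the 33 proteasome subunits, which degrade proteins, held 0.770%. The proteasome genes were all detected, with a median of 227 FPKM and pbs-1 highest at 368, 356 and 375 FPKM. Mitochondrial ribosomal proteins were lower, with a median of 60.4 FPKM over 65 detected genes, against 2332 FPKM for their cytosolic counterparts.

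**Figure D2:**
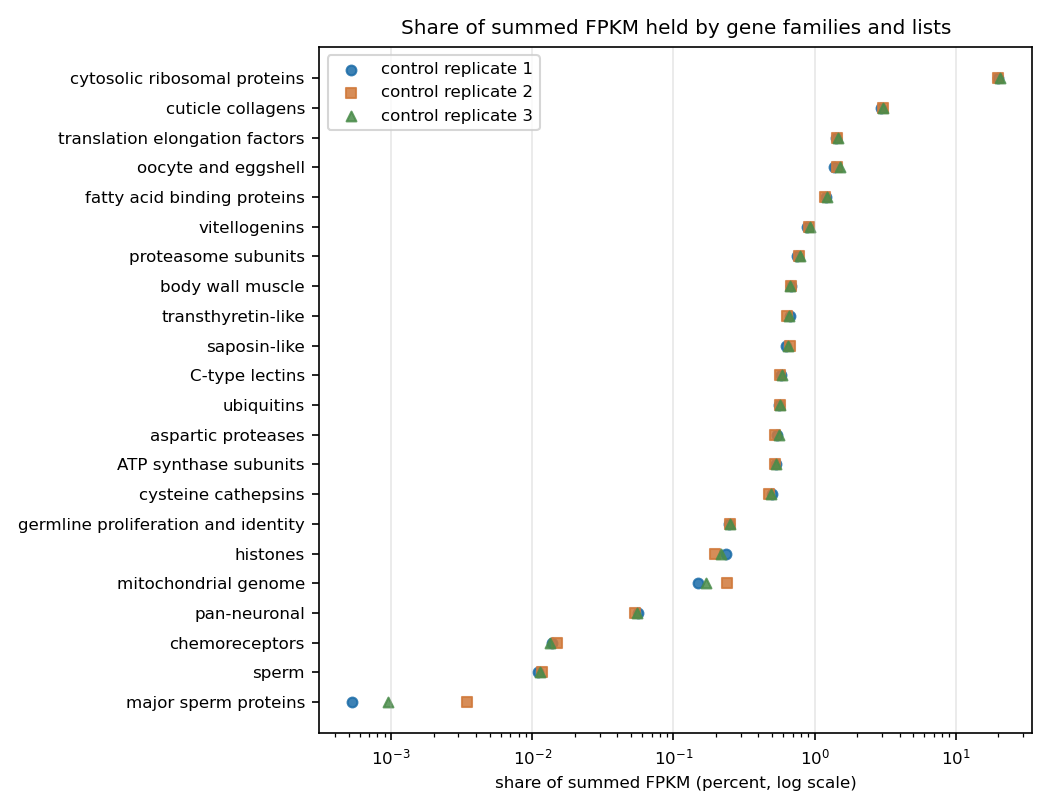
Share of the summed FPKM held by gene families and lists, in percent on a log axis, with 1 point for each of the 3 control libraries. Ribosomal proteins lie near 20%, collagens near 3%, and major sperm proteins below 0.01%; the mitochondrial genome and the major sperm proteins are the rows whose points lie farthest apart.

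Collagens formed the second family. The 174 cuticle collagen genes held 3.04% ± 0.051, but the family was sharply divided. Only 69 genes were detected in all 3 libraries, while 77 stayed below 1 FPKM and 10 were listed at 0. The 5 highest, col-119, col-122, col-140, col-181 and col-20, carried 46.2% ± 0.924 of the family's sum, and the 10 highest carried 69.8%. col-140 stood at 2885, 2844 and 3025 FPKM, col-181 at 2366, 2327 and 2392 FPKM and col-20 at 1849.9, 1920.4 and 1911 FPKM. Thus 12 collagens exceeded 1000 FPKM and 23 exceeded 100 FPKM in a family whose median member was at 0.679 FPKM.

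Yolk was made in bulk. The vitellogenins, large lipid carriers made in the intestine, summed to 8585, 8946 and 8937 FPKM, or 0.913% ± 0.0202 of the total. vit-6 alone supplied 53.2% ± 0.761 of that sum. vit-5 followed with 2649, 2605 and 2721 FPKM. The remaining genes were lower, vit-3 at 525, 582 and 545 FPKM, vit-1 at 408, 607 and 501 FPKM and vit-4 at 379.7, 466 and 389.7 FPKM. In each of these 3 genes control 1 was the lowest and control 2 the highest. vit-2 was listed at 0 in all 3 libraries, and the family sum and the share of vit-6 count it as 0. If that 0 is a failed estimate, the sum could be too low and the share of vit-6 too high. The vitellogenin genes on the X chromosome resemble each other in sequence, and how the authors' pipeline treated fragments shared between such genes is not given in the sources used here, so the values of single vit genes are uncertain. Lipid carriers inside and outside cells added 1.21% over 17 genes, of which far-2 alone supplied 60.1%. lbp-9, an intracellular fatty acid binding protein, had 1218, 1128 and 1178 FPKM, and far-1 had 1452, 1406 and 1364 FPKM.

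The germline was fully represented. All 21 genes of germline proliferation and identity were detected in every library, with a median of 106 FPKM, and 11 exceeded 100 FPKM. Highest was gld-1, a translational repressor that governs meiotic entry and oocyte differentiation, at 496, 496 and 509 FPKM. The Argonaute gene wago-1, which acts with small RNAs in the germline, had 291, 308 and 297 FPKM. Genes of the P granules, the RNA-rich bodies of germ cells, stood next, with pgl-1 at 179, 189.5 and 186 FPKM, deps-1 at 152, 149 and 154 FPKM and glh-1 at 143, 157 and 148 FPKM. The Notch receptor glp-1, which keeps germline stem cells dividing, had 44.4, 46.7 and 45.7 FPKM, and its target sygl-1 had 133, 131 and 134 FPKM. Replicates of these genes hardly differed.

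Meiotic genes were also complete, 17 of 17 in every library, at a lower median of 41.99 FPKM. him-3, a protein of the chromosome axis, was highest at 81.7, 89.5 and 82.3 FPKM. htp-1, of the same family, had 64.9, 66.6 and 67.4 FPKM, and syp-2, a part of the synaptonemal complex that joins paired chromosomes, had 60.7, 62.01 and 59.3 FPKM.

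Transcripts of oocytes and eggshell were the most abundant of the germline lists. Their median was 395 FPKM over 24 genes, and 22 had a mean of at least 100 FPKM. perm-2 and perm-4, which are needed for the permeability barrier of the eggshell, stood at 2179.9, 2058 and 2259 FPKM and at 1733, 1686 and 1809 FPKM. The eggshell chondroitin proteoglycans cpg-2 and cpg-1 had 1797, 1716 and 1784 FPKM and 1382, 1395 and 1456 FPKM. These 4 genes were the ones above 1000 FPKM. cpg-3, of the same family, was listed at 0 in control 1 and at 899 and 929.7 FPKM in controls 2 and 3. It was the sole member not detected in all libraries, and without it the list summed to 13139, 13123 and 13615 FPKM. Maternal RNA regulators were also abundant, with the zinc finger protein gene pos-1 at 806, 853 and 862 FPKM and spn-4 at 582, 608 and 599 FPKM. rme-2, the receptor through which oocytes take up yolk, had 403, 414 and 416 FPKM. The members with the lowest means were nos-2 at 90.5, 93.7 and 89.1 FPKM and lin-41, which controls oocyte growth, at 74.4, 76.6 and 73.97 FPKM.

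Genes that embryos switch on themselves were detected at low level. Of 10 early zygotic genes, 7 passed 1 FPKM in all libraries, with a list median of 1.69 FPKM. pes-10, expressed in early embryonic blastomeres, had 7.09, 6.77 and 9.06 FPKM, and the endoderm GATA factor end-1 had 3.54, 3.86 and 3.84 FPKM. ceh-51, a mesoderm factor, had 3.38, 3.19 and 3.1 FPKM. The 3 members that stayed below 1 FPKM were tbx-35, med-1 and med-2.

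Spermatogenesis was close to silent. The major sperm proteins, which form the moving cytoskeleton of nematode sperm, summed to 5.09, 33.5 and 9.15 FPKM over 31 genes, and none reached 1 FPKM in all libraries. Control 2 held most of that signal, and the share of the summed FPKM, 0.00164% over the 3 libraries, was 0.000739% without it. It was the highest of the 3 libraries in all 28 members above 0, and 18 members passed 1 FPKM there, against 0 in control 1 and 1 in control 3. The highest member, msp-40, had 0.931, 2.9 and 0.71 FPKM. How fragments shared between genes of a family were treated is not given, so the sum, the counts and the values of single msp genes are uncertain. On the list of other sperm genes 7 of 28 were detected in every library, 4 were listed at 0, and the median was 0.175 FPKM. The PP1 phosphatase gene gsp-4, specific to sperm, was at 0.2, 0.327 and 0.101 FPKM, and fer-1, needed for sperm membrane fusion, was at 0.107, 0.0913 and 0.0461 FPKM. Those that were detected include spe-39, a membrane trafficking gene that is also expressed outside sperm, at 55.6, 56.7 and 55.6 FPKM, the germline sex determination gene fog-1 at 15.8, 18.8 and 17.1 FPKM, and the transcription factor gene spe-44 at 13.2, 13.9 and 12.98 FPKM.

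Male cells left no clear trace. Of 11 genes of the male soma none was detected in every library, and 2 were listed at 0. The highest was her-1, which directs male development, at 0.99, 1.27 and 1.63 FPKM, and the male neuron gene pkd-2 was listed at 0.0281, 0 and 0 FPKM. No member apart from her-1 reached 1 FPKM in any library.

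The marker genes of the adult cuticle did not go together. Among 5 genes of the adult cuticle, col-19, a collagen switched on at the last moult and used as a marker of adult skin, was at 831, 846 and 887 FPKM (chromosome X, 421707 to 422691). The other members were far lower, with col-62 at 0.508, 0.584 and 1.11 FPKM, bli-2 at 0.172, 0.237 and 0.119 FPKM, col-7 at 0.0341, 0.264 and 0.176 FPKM and bli-1 at 0.0306, 0.0807 and 0.0616 FPKM. bli-1 and bli-2 encode collagens of the struts that are built in the adult cuticle. Of 5 collagens of the late last larval stage, col-38 was detected, at 4.29, 3.23 and 3.3 FPKM, and the rest were below 1 FPKM. All 3 genes of the dauer, the resistant larva, were below 1 FPKM, with col-40 highest at 0.24, 0.473 and 0.207 FPKM.

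**Figure D3:**
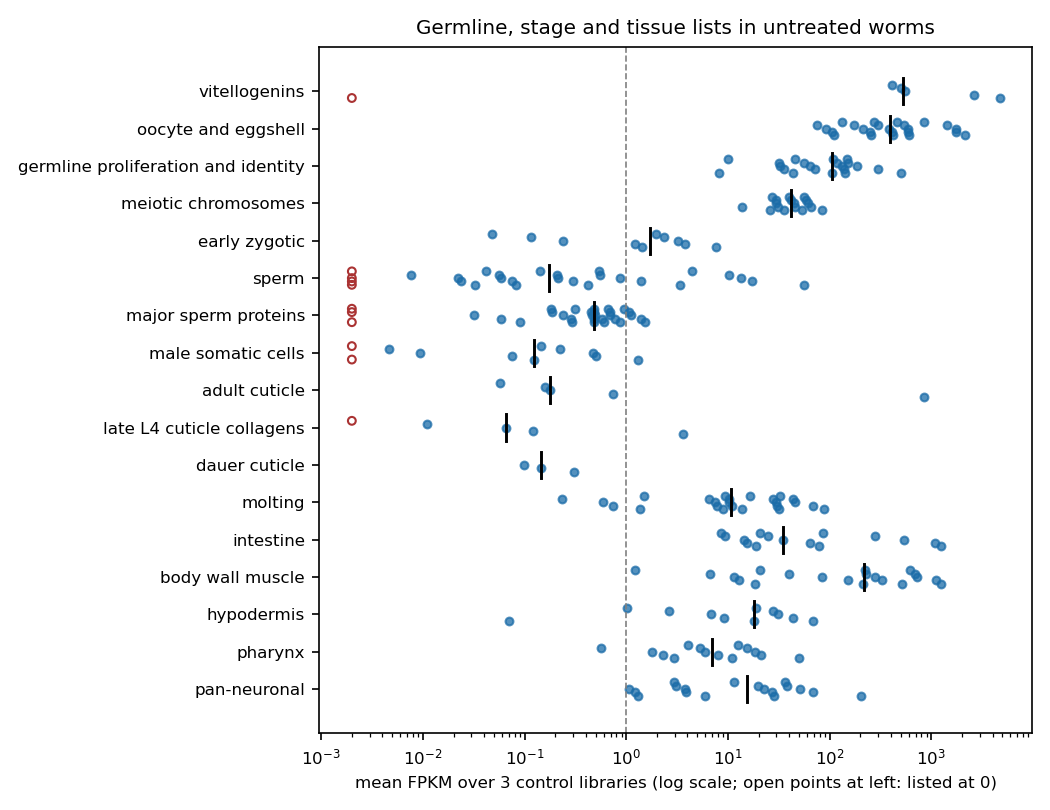
Mean FPKM over the 3 control libraries, on a log axis, for each gene of the germline, stage and tissue lists, with the list median as a black bar, 1 FPKM as a dashed line, and genes listed at 0 as open points at the left. Yolk, oocyte, germline and meiotic genes lie to the right of the line apart from vit-2 at 0, and most sperm, male, late larval and dauer genes lie to its left.

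Genes of the moult were present at moderate level. Of 24, 20 were detected in every library, with a median of 10.6 FPKM. noah-2 and noah-1, large proteins of the extracellular matrix, had 102, 82.7 and 76.7 FPKM and 79.9, 66.7 and 61.4 FPKM. The furrow collagens dpy-10 and dpy-3 had 56.3, 46.9 and 33.96 FPKM and 40.9, 28.5 and 26.2 FPKM. mlt-8 had 55.1, 41.8 and 35.3 FPKM. In each of these 5 genes control 1 was the highest and control 3 the lowest. nhr-23, a nuclear receptor that drives the moult, had 29.1, 32.5 and 30.5 FPKM and did not share that order.

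Heterochronic genes, which time the larval stages, were detected in every library apart from lin-46. lin-41 was highest, as given with the oocyte genes, and lin-28, an RNA-binding protein, had 61.7, 61.3 and 62.6 FPKM. hbl-1 stood at 33.6, 25.2 and 21.1 FPKM and lin-14, an early larval factor, at 10.3, 9.18 and 5.29 FPKM, both with control 3 lowest. lin-29, which triggers the switch to adult skin, had 2.2, 2.29 and 2.13 FPKM.

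All 15 intestine genes were detected. The digestive proteases asp-1, an aspartic protease, and cpr-6, a cysteine protease, stood at 1215, 1211 and 1277 FPKM and 1089.5, 1088 and 1077 FPKM. cpr-1 had 579, 501 and 548 FPKM, and act-5, the actin of the intestinal microvilli, had 249, 308 and 284 FPKM. The GATA factor gene elt-2, which defines the intestine, was far lower at 8.19, 9.53 and 7.73 FPKM. Families known from the gut were abundant as well. The lysozyme gene ilys-5 had 1744, 2101 and 1863 FPKM, the saposin-like gene spp-5 had 2159.8, 2408 and 2165 FPKM and the cathepsin L gene cpl-1 had 1552, 1492 and 1501 FPKM.

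Body wall muscle had the highest median of the somatic lists, 216 FPKM over 20 genes, with 19 detected in every library. The troponin C gene pat-10 had 1268, 1292 and 1203 FPKM, and the myosin light chains mlc-2 and mlc-3 had 1134, 1106 and 1114 FPKM and 747, 723 and 718 FPKM. unc-27, a troponin I, had 681, 714 and 695 FPKM and the tropomyosin gene lev-11 had 620.5, 633 and 600.1 FPKM. Myosin heavy chains were lower, unc-54 at 234, 220.0 and 226 FPKM and myo-3 at 19.9, 24.03 and 18.4 FPKM. The pharynx list, which holds gland genes and regulators beside muscle genes, had a median of 7.02 FPKM over 14 genes, with the troponin I gene tni-4 highest at 54.3, 50.5 and 43.8 FPKM and the pharyngeal myosin gene myo-2 at 14.1, 12.5 and 11.2 FPKM.

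In the skin, 9 of 11 hypodermis genes were detected in every library, led by the zinc finger factor lin-26 at 66.9, 70.7 and 66.5 FPKM and the hedgehog-related gene wrt-10 at 47.96, 41.9 and 40.6 FPKM. Of 7 seam cell genes 5 were detected, with the GATA factor egl-18 at 54.8, 46.95 and 51.3 FPKM. The hypodermal collagen dpy-7 was at 36.95, 25.5 and 21.5 FPKM, with control 1 highest.

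Neurons were seen through their shared machinery. Of 18 pan-neuronal genes 17 were detected in every library, with a median of 15.6 FPKM. The synaptic vesicle protein gene snb-1 stood well above the rest at 203, 195 and 210.3 FPKM, ahead of sbt-1, a chaperone for neuropeptide processing, at 72.96, 61.3 and 70.7 FPKM. egl-21 and egl-3, enzymes that process neuropeptides, had 50.8, 51.98 and 51.2 FPKM and 38.5, 38.5 and 36.6 FPKM. Neuropeptides themselves were well detected, 30 of 31 FMRFamide-like genes and 64 of 71 of the other class, against 57.9% of all protein-coding genes. The highest members of the other class, nlp-27 and nlp-28, encode peptides also made in the skin. They had 289, 466 and 350.2 FPKM and 252, 288 and 261 FPKM. flp-1 was the highest of the FMRFamide-like genes at 65.2, 61.6 and 61.4 FPKM.

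Genes of single transmitters were mostly near the detection level, with a clear exception. tbh-1 and tdc-1, the enzymes that make octopamine and tyramine and that are also expressed in the sheath of the gonad, stood at 204, 206 and 207 FPKM and 125, 125 and 124 FPKM. bas-1, an amine-synthesising decarboxylase, had 16.7, 18.1 and 16.54 FPKM. By contrast the vesicular transporter genes unc-17 for acetylcholine and eat-4 for glutamate had 1.48, 1.87 and 1.51 FPKM and 1.15, 1.15 and 0.684 FPKM. Gonadal sheath genes were all 4 detected, with the gap junction gene inx-8 at 113, 117 and 113 FPKM. Of 7 touch receptor neuron genes 3 were detected in every library. They were the tubulins mec-12 at 18.4, 15.7 and 13.5 FPKM and mec-7 at 14.1, 13.02 and 10.6 FPKM, and mec-17 at 10.1, 8.98 and 7.95 FPKM. The other 4 stayed below 1 FPKM in all 3 libraries, with the channel gene mec-4 lowest at 0.212, 0.261 and 0.421 FPKM. Coelomocytes, the scavenger cells of the body cavity, had all 3 genes detected, with a median of 4.07 FPKM. The highest was cup-4 at 6.29, 6.75 and 5.87 FPKM. Of 5 genes of the excretory system 4 were detected in every library, with a median of 2.40 FPKM. The highest was the water channel aqp-8 at 24.1, 24.6 and 29.3 FPKM.

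Several metabolic genes were very abundant. These lists were drawn up after their values had been seen. acdh-1, the acyl-CoA dehydrogenase of the propionate shunt and known to be held down by vitamin B12, was at 1533, 1521 and 1481 FPKM (chromosome I, 6497436 to 6499560). The other shunt genes were alh-8 at 771, 690.5 and 726 FPKM, ech-6 at 545, 586 and 533 FPKM, hphd-1 at 456, 412 and 416 FPKM and hach-1 at 275, 217 and 248 FPKM. The canonical route, which needs B12, had a lower median, 132 FPKM against 555 FPKM for the shunt, but the 2 lists overlapped. Its highest gene, pccb-1, stood above hach-1 at 304, 281 and 296 FPKM. mmcm-1, the B12-dependent mutase, had 111, 89.2 and 100.3 FPKM. The glycolytic enzyme aldo-2 had 1242, 1142 and 1178 FPKM and enol-1 had 812, 781 and 796 FPKM. ahcy-1, which clears S-adenosylhomocysteine in the methionine cycle, had 1480.2, 1655 and 1622 FPKM. Fatty acid desaturases included fat-2 at 670.0, 729.5 and 709 FPKM and fat-1 at 385, 429 and 407 FPKM.

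Genes often used as reporters of stress covered a wide range. The mitochondrial chaperone hsp-6 had 296, 302 and 298 FPKM and the endoplasmic reticulum chaperone hsp-4 had 231, 249 and 241 FPKM, both steady. The ferritin ftn-2 had 444, 439.6 and 485 FPKM. icl-1, of the glyoxylate cycle, had 574, 221 and 386 FPKM and gst-4, an oxidative stress reporter, had 40.96, 67.4 and 42.4 FPKM, and in both the libraries stood apart. Of the cytochromes P450, 39 of 74 (52.7%) were detected in every library, near the 57.9% of all protein-coding genes. The highest were cyp-31A2 at 92.05, 93.7 and 88.8 FPKM, cyp-31A5 at 78.4, 88.01 and 83.4 FPKM and cyp-31A3 at 61.8, 64.9 and 63.3 FPKM, a group known for its part in eggshell formation. These 3 genes resemble each other in sequence, so their separate values are uncertain.

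Chemoreceptors were the largest silent family. These receptors sit in the cilia of a few sensory neurons. Of 1310 genes, 692 (52.8%) were listed at 0 in all 3 libraries and 596 more never reached 1 FPKM, which left 22 detected in any library and 13 in all. For all protein-coding genes the share below 1 FPKM in all 3 libraries was 36.5%, against 98.3% of chemoreceptors. The highest were sri-40 at 30.8, 38.3 and 33.6 FPKM, srr-4 at 15.3, 15.1 and 14.97 FPKM and srh-237 at 6.49, 7.16 and 7.91 FPKM. Only 5 genes had a mean of at least 5 FPKM. No member of the srbc (71 genes), srd (67), srz (63) or sre (54) classes reached 1 FPKM in any library. FPKM gives no read totals, so a listed 0 describes these libraries and does not show that the gene was off.

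**Figure D4:**
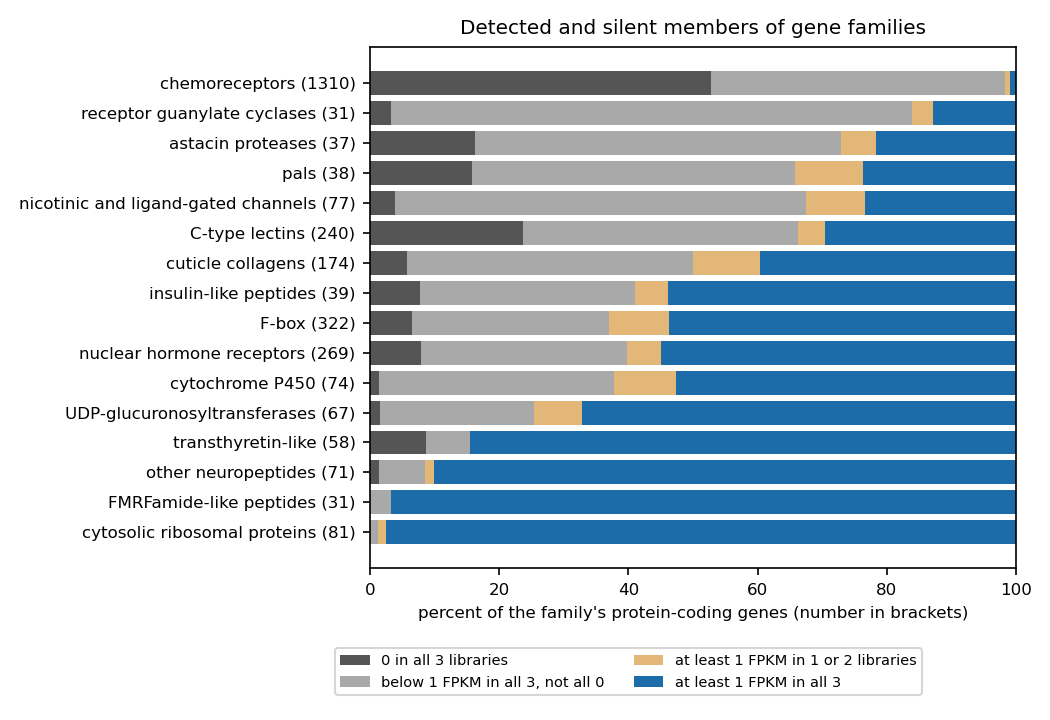
Percent of each family's protein-coding genes that were listed at 0 in all 3 control libraries, below 1 FPKM in all 3, at or above 1 FPKM in 1 or 2 libraries, or in all 3, with family size in brackets. The blue bar runs from 13 of 1310 chemoreceptors at the top to 79 of 81 ribosomal proteins at the bottom.

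Some other families had a low share of detected genes, against 57.9% of all protein-coding genes detected in every library. Of 31 receptor guanylate cyclases 4 were detected in every library, with gcy-28 highest at 23.6, 34.4 and 23.8 FPKM, followed by gcy-12 at 3.33, 4.6 and 3.09 FPKM. Ligand-gated channels were detected in 18 of 77 genes, with lgc-22 at 33.1, 25.5 and 27.4 FPKM. Astacin proteases were detected in 8 of 37, with nas-11 at 45.4, 46.1 and 44.3 FPKM, and the pals family, known from the response to intracellular pathogens, in 9 of 38, with pals-23 at 16.02, 5.5 and 9.61 FPKM. Nuclear hormone receptors and F-box genes lay near the share of all protein-coding genes, at 148 of 269 (55.0%) and 173 of 322 (53.7%). nhr-49, a regulator of fat use, was the highest nuclear receptor at 77.2, 79.6 and 74.1 FPKM, and fbxa-215 was the highest F-box gene at 162, 182 and 161 FPKM. Insulin-like peptides were likewise detected in 21 of 39 genes (53.8%), with ins-19 at 26.8, 36.7 and 27.3 FPKM.

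Some families drew most of their sum from a few abundant members. C-type lectins, sugar-binding proteins with known parts in immunity, were detected in 71 of 240 genes, and 159 stayed below 1 FPKM in all 3 libraries. clec-87 stood at 1862, 1882 and 1921 FPKM and alone held 33.9% ± 0.300 of the family's sum, and the 5 highest held 68.6%. clec-63 came next at 607, 572 and 659 FPKM, then clec-88 at 495, 541 and 496 FPKM. Among 30 saposin-like genes the 5 highest held 85.4% ± 0.413, but most of the family was not silent. In every library 19 were detected, and 6 stayed below 1 FPKM in all 3. Transthyretin-like genes were more evenly expressed, with 49 of 58 detected, ttr-15 highest at 1105, 1137 and 1101 FPKM and 59.5% of the sum in the 5 highest.

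The chromosomes differed in how much they contributed. On chromosome III 73.05% of protein-coding genes were detected in every library, on chromosome I 67.1%, on chromosome X 62.5% and on chromosome V, which carries many chemoreceptors, 42.1%. Genes at 100 FPKM or more were least frequent on X, at 4.79%, against 12.1% on chromosome III and 11.2% on chromosome I. X held 8.17% of the summed FPKM and 13.5% of the protein-coding genes. None of the 62 genes of the germline, meiotic and oocyte lists lies on X. The germline of C. elegans is known to keep most of its X-linked genes off.

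A few genes were listed at 0 in ways that their neighbours do not share. tbb-2, a beta-tubulin gene, was listed at 0 in all 3 libraries, while tbb-1, its close relative, had 672, 661 and 669 FPKM. Of 72 histone genes 30 were listed at 0 throughout. Most replication-dependent histone transcripts lack a poly(A) tail and the genes are near-identical copies, so histone values are uncertain, and the highest was the H1 gene his-24 at 704, 534 and 625 FPKM. A further 75 genes were listed at 0 in 1 or 2 libraries and at 10 FPKM or more in another, and 17 of them were protein-coding. The highest 10 were rpl-7, F09E10.15, K07C10.2, cpg-3, F52D2.14, T06D10.7, F59D8.3, F49D11.13, C08D8.6 and Y73C8B.9. Zeros beside high values, as in rpl-7, can be failed estimates, so these genes were left out of the measures of spread below.

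Beyond protein-coding genes, which held 97.7% ± 0.387 of the summed FPKM, non-coding RNAs (ncRNA) held 1.48% ± 0.344. C36C9.10, an ncRNA of 135 bases, was highest at 3488, 2976 and 2827 FPKM, followed by D1065.6, of 81 bases, at 4003, 2011 and 1187 FPKM. F56D12.10 had 1564, 2478 and 1268 FPKM, the ribosomal RNA gene rrn-2.1 had 1103, 658 and 1165 FPKM and C18H9.12 had 1305, 979 and 600.2 FPKM. The replicates of these short genes differed far more than those of protein-coding genes at the same level, up to a CV of 60.3% for D1065.6. FPKM divides by transcript length, which makes values of very short genes large and unsteady. All 15351 piRNA and 633 tRNA genes were listed at 0. The mitochondrial genome, made of transcripts for the respiratory chain and its ribosomal RNAs, summed to 1438, 2316 and 1639 FPKM, highest in control 2, with COX3 at 335, 526 and 371 FPKM.

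Replicates resembled each other closely. Over 12441 genes with a mean of at least 1 FPKM and no library at 0, Pearson correlations of log2(FPKM + 1), which are across genes and not across independent samples, were 0.987 for controls 1 and 2, 0.990 for controls 1 and 3 and 0.989 for controls 2 and 3. The median SD of log2(FPKM + 1) was 0.10 and the median CV 7.74%. Spread shrank with level, from a median CV of 22.4% at 1 to 3 FPKM to 7.55% at 10 to 30 FPKM and 2.04% at 1000 FPKM or more. Among protein-coding genes with a symbol and a mean of at least 100 FPKM, the lowest CV belonged to rpl-28, at 1771, 1769 and 1774 FPKM, a CV of 0.136%. rmd-2 came next at 246, 245 and 245 FPKM.

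Of 7771 genes with a mean of at least 10 FPKM, 128 (1.65%) differed more than 2-fold between their highest and lowest library, 101 of them protein-coding. Control 1 was highest and control 2 lowest in 42 of them, control 2 highest and control 1 lowest in 35, and control 1 highest and control 3 lowest in 30. Control 3 was the highest in 3 genes with control 1 lowest and in 5 with control 2 lowest. With a library left out, and so fewer values behind each range, the count was 58 without control 1, 46 without control 2 and 89 without control 3. The 15 named genes of largest spread had their lowest value in control 3 in 7 cases, in control 2 in 6 and in control 1 in 2.

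Of the 7 genes lowest in control 3 all but nspe-1 and ram-2 are named as collagens or cuticlins. The collagens col-107, col-165 and col-74 had 30.04, 14.6 and 2.48 FPKM, 44.7, 25.2 and 7.19 FPKM and 36.5, 19.9 and 7.14 FPKM. The cuticlins cut-2 and cut-3, crosslinked proteins of the cuticle, had 77.9, 42.3 and 14.8 FPKM and 29.3, 19.4 and 5.97 FPKM. ram-2 had 37.3, 19.4 and 8.41 FPKM, and nspe-1 had 13.2, 24.6 and 1.83 FPKM. Of 76 collagens with a mean of at least 1 FPKM and no library at 0, 33 (43.4%) were highest in control 1 and lowest in control 3, and 18 were highest in control 2 and lowest in control 1. All 18 collagens with a mean of at least 1 FPKM and more than a 2-fold range, a subset picked by their spread, were highest in control 1 and lowest in control 3, and their means lay between 1.02 and 25.7 FPKM. Of 21 molting genes in the spread set 15 had that order, 71.4%, against 18.1% of all 12441 genes. The median member of the molting list lay 0.26 above its mean over the 3 libraries in control 1 and 0.23 below it in control 3 on the log2(FPKM + 1) scale. Pharynx genes had the same order in 9 of 13 cases, groundhog and ground-like genes in 12 of 20 and cuticlins in 4 of 4. It was also seen outside cuticle and moult, in 3 of 3 touch receptor neuron genes, 7 of 15 chemoreceptors and 5 of 10 pals genes. By contrast, oocyte and eggshell genes had it in 0 of 23 cases and cytosolic ribosomal proteins in 1 of 79. The abundant collagens col-119 and col-122 did not share that order. No label of these samples goes with that order, and its source was not tested.

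**Figure D5:**
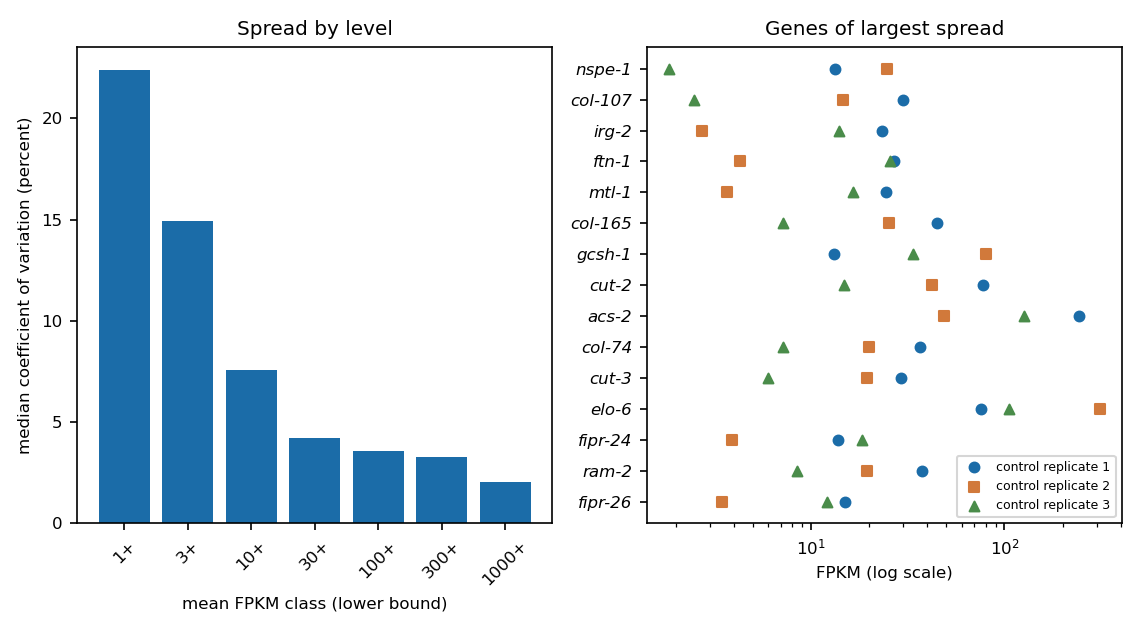
Left, median coefficient of variation over the 3 control libraries, in percent, for genes grouped by mean FPKM. Right, FPKM on a log axis of the 15 named genes of largest spread, with 1 point per control library; control 3 is lowest for the collagens and cuticlins, and control 2 is lowest for irg-2, ftn-1, mtl-1, acs-2, fipr-24 and fipr-26.

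Another group had its lowest value in control 2. acs-2, an acyl-CoA synthetase that is raised by fasting in worms, had 242, 48.99 and 126 FPKM. The ferritin ftn-1 had 26.9, 4.28 and 25.6 FPKM, and the metallothionein mtl-1 had 24.3, 3.69 and 16.47 FPKM. irg-2, named for its response to infection, had 23.2, 2.73 and 13.9 FPKM, and the fungus-induced related genes fipr-24 and fipr-26 had 13.9, 3.88 and 18.4 FPKM and 15.03, 3.47 and 12.1 FPKM. Opposite to these, elo-6, an elongase for branched-chain fatty acids, was highest in control 2 at 75.7, 314 and 106 FPKM, as was elo-5, of the same pathway, at 89.99, 227 and 106 FPKM. gcsh-1, of the glycine cleavage system, had 13.2, 80.2 and 33.6 FPKM. Of 17 genes for fatty acid elongation and desaturation, a list drawn up after values were seen, 14 were highest in control 2. Among all 12441 genes control 2 was the highest in 5288. The major sperm proteins and the mitochondrial genome were also highest in control 2, and whether these differences have a common source was not tested.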

How the data were processed

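Gene-level FPKM, fragments scaled to transcript length and to the mapped fragments of the library, were taken as the authors deposited them for 46284 gene IDs. The table has 9 sample columns, of which the 3 untreated columns were used and 6 were not used here. No header or label names the aligner, counting program, build or annotation version, which are therefore not given in the sources used here. Per the submitters' processing notes the study used DESeq2, with no role stated, and it was not run for these descriptions. Because FPKM hold no totals of reads, library depth is unknown and no counting error could be given. Biotypes, symbols and positions came from the Ensembl release 115 annotation of WBcel235, and an additional symbol from RefSeq. Coordinates are those of WBcel235, which may not be the authors' build.

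A gene was called detected at 1 FPKM or more in all 3 libraries. Shares are a list's FPKM divided by the library's summed FPKM. Spread was computed on log2(FPKM + 1), with a pseudocount of 1, over genes with no library listed at 0, at a mean of at least 1 FPKM, or at least 10 FPKM for the 2-fold range. Computation used Python 3.11.15 with pandas 2.3.3, numpy 2.4.6 and scipy 1.17.1, and the functions were tested on simulated data. There is a lone group, so no test was run. Alternatives changed the detection level, the filter, the denominator of shares, the pseudocount or the scaling, or left out a library.

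Lists hold protein-coding genes named by symbol, apart from the list of the mitochondrial genome. Genes named in the text are the 25 most abundant protein-coding genes, the 5 most abundant of other biotypes, up to 5 highest members of each list (3 in families largely at 0) and members whose low level matters, the 15 genes of largest spread with a symbol and a mean of at least 10 FPKM, and up to 10 genes at 0 in 1 or 2 libraries with at least 100 FPKM in another. The steadiest genes, elo-5 and a few members named for their role, such as glp-1, sygl-1, spn-4, rme-2, nhr-23, hsp-4, gst-4 and mmcm-1, were chosen after their values were seen. The samples and lists were chosen with earlier results of these data known, and 6 metabolic and eggshell lists were added after the values were seen.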

Additional observations from a re-analysis of the deposited data

How the results depend on the processing

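Of 67 alternative values for 11 results, 52 stayed within their limit and 15 moved past it. The limit was 1.5 times for a count, the SD between replicates for a share, and for the median SD its own SD over the fits that leave out a library. Leaving out a library of 3 cannot move a mean share by its SD. Those alternatives were therefore bound to stay within the limit and do not show stability. The share of major sperm proteins stayed within it although it was 0.00164% with all libraries and 0.000739% without control 2. The count of chemoreceptors detected in any library, 22, depends on the detection level: it was 44 at 0.5 FPKM, 237 at 0.1 FPKM, 6 at 5 FPKM, and 13 when every library had to pass. At 5 FPKM 1 of the 7 early zygotic genes was left. Over protein-coding genes alone the shares were 29.1% for the top 100 genes, 20.6% for ribosomal proteins, 3.11% for collagens and 0.934% for vitellogenins. The median SD of log2(FPKM + 1) was 0.068 at a mean of at least 10 FPKM. Leaving out each library in turn gave a median SD of 0.068 to 0.091 and between 46 and 89 genes of more than 2-fold range, each from fewer values. With a mean of at least 1 FPKM 492 genes passed that range, and 178 did so when genes listed at 0 in 1 or 2 libraries were added, an alternative chosen after seeing the data. Scaling by median-of-ratios factors of 1.01, 1.02 and 0.982, applied to the measures of spread, gave a median SD of 0.099 and 126 genes of more than 2-fold range. No paired analysis was possible because there is a lone group. Depth is unknown, and the lowest values limit what can be said of silent genes.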
